A study of Mus musculus with 4 samples.

Results

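The neighbourhood of Shh and Mnx1 on mouse chromosome 5 was described from Micro-C, which fixes chromatin, digests it to nucleosomes with micrococcal nuclease and joins ends that lie close together in the nucleus, so that each sequenced junction counts as 1 contact between 2 places on the genome. The neighbourhood was taken as all pairs of 8 kb bins with both bins inside chr5:28200001-29696000 of GRCm38, which holds 187 bins and 17578 possible pairs. In the list made for embryonic stem cells (ESCs), 8343 of the 23095428 listed pairs lay there, and in the list made for motor neurons (MNs) 7732 of 21005697 did. The members are the genes Shh and Mnx1, and 8 protein-coding genes have their promoter in the window.

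E14 mouse ESCs, wild type (WT) or PATZ1 KO, were grown with LIF and 2 kinase inhibitors, and cervical MNs were made from the same WT and PATZ1 KO lines as embryoid bodies given retinoic acid at 1 µM and smoothened agonist at 0.5 µM, with no sorting step described. The 4 groups, WT ESC, PATZ1 KO ESC, WT MN and PATZ1 KO MN, had 1 library each. PATZ1 is a zinc finger protein with a POZ domain and AT-hooks, and its gene was disrupted with CRISPR/Cas9 in clonal lines; which clone gave the Micro-C libraries is not stated in the sources used here. There were thus no replicates, and no p-value was computed. Intervals are exact 95% intervals that cover counting error only, and a difference between 2 libraries is not shown to be a difference between conditions. The value columns carry the numbers 1 and 2 and no sample name, so each direction for PATZ1 KO rests on reading 1 as WT and 2 as KO, since the comparisons are named WT first. Neither PATZ1 itself nor the cell type could be checked, since no expression was measured in these files.

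Sonic hedgehog (Shh) is a secreted ligand that patterns the limb bud and the ventral neural tube, and its limb expression depends on an enhancer that lies far away, inside an intron of Lmbr1. In the ventral spinal cord, Hedgehog signalling helps to specify motor neuron progenitors, and smoothened agonist switches the pathway on below the ligand. Mnx1 (also called Hb9) encodes a homeobox transcription factor that is a classical marker of motor neurons. It lies beyond Lmbr1 as seen from Shh. Mammalian chromosomes are divided into domains whose inner contacts exceed those with their surroundings, and the insulator protein CTCF is bound at many domain edges.

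Shh lies on the minus strand at chr5:28456815-28467256 and Mnx1, also on the minus strand, at chr5:29473034-29478470. The promoter bins of both are 1008 kb apart. Between them lie the promoters of Rnf32, 728 kb from that of Shh, Lmbr1 at 912 kb and Nom1 at 968 kb. Ube3c, which encodes a ubiquitin ligase, starts at 1104 kb, and on the other side of Shh Rbm33 starts at -152 kb and Cnpy1 at -224 kb. The 2 bins taken for the limb enhancer, chr5:29304001-29320000, fall wholly in intron 5 of the 17-exon transcript Lmbr1-201, and their first bin is 840 kb from the Shh promoter bin.

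The window held 84080 contacts in WT ESC, 80512 in PATZ1 KO ESC, 58296 in WT MN and 57705 in PATZ1 KO MN. A pair entered a list only where each of the 2 libraries of that cell state had 1 contact or more, so 47.5% of the possible pairs of the window were listed for ESCs and 44.0% for MNs, and an unlisted pair was counted as 0. This rule bears on every value below. Contact was expressed as observed over expected, the contacts of a set of pairs divided by the mean over all chromosome 5 pairs at the same separation. At 840 kb, 17.4% of chromosome 5 pairs were listed in ESCs and 16.4% in MNs, so the expected value there is low, and a high observed over expected value at long range is larger than it would be with all contacts kept. The shared list also holds WT and PATZ1 KO values of sparse pairs close to each other. The ESC and MN lists were made and normalized separately, and every comparison between them is a level set across lists.

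In all 4 libraries, 1 large domain ran from Shh to the promoter end of Lmbr1. Its edges were the lowest bins of the insulation score, the log2 of the mean contact in a square of about 250 kb that spans a bin over the chromosome 5 mean of that library, so that a low score marks a bin that few contacts cross. The Shh side edge was the bin chr5:28448001-28456000, directly beyond the 3′ end of Shh, and scored -2.25 in WT ESC, -2.19 in PATZ1 KO ESC, -2.29 in WT MN and -2.36 in PATZ1 KO MN. It was the lowest bin in each library. Between 0.365% and 0.624% of autosomal bins scored as low in the same library. The Lmbr1 side edge was the bin chr5:29360001-29368000, in Lmbr1 and short of its promoter bin, and scored -1.39, -1.54, -1.38 and -1.45 in the same order. Its lowest bin was the same in every library except PATZ1 KO ESC, where it was the next bin, 8 kb further. Between 1.44% and 3.28% of autosomal bins scored as low. Both edges were picked as the lowest bins of the mean score of the 4 libraries, each in its part of the window. A low rank among single autosomal bins follows in part from that choice. No other bin of the window was a boundary, a local minimum under -0.2 of the mean score, in either cell state. The domain between the edges is 904 kb long, and Mnx1, Nom1 and the promoters of Lmbr1 and Ube3c lie outside it, on what is called the Mnx1 side here (chr5:29368001-29696000). The stretch on the other side of Shh, chr5:28200001-28448000, is called the Rbm33 side.

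**Figure D1:**
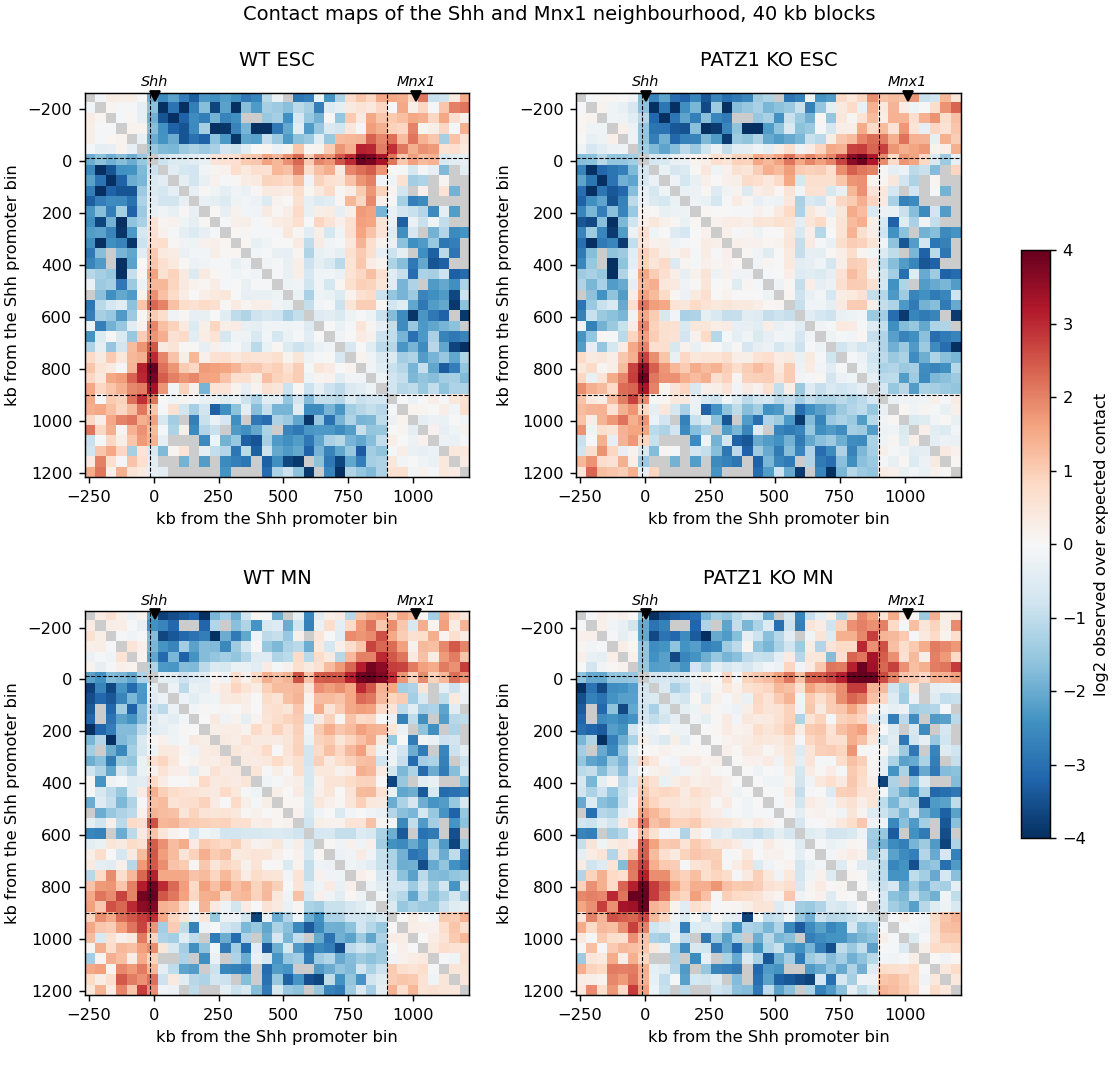
Contact maps of the window in the 4 libraries, in blocks of 40 kb. Both axes give kb from the Shh promoter bin, colour gives log2 observed over expected contact (red above and blue below the chromosome 5 mean at the same separation), grey blocks have no listed contact or lie on the diagonal, and dashed lines mark both domain edges. The red corner where the Shh end meets the Lmbr1 end, about 800 kb away, and the blue fields across both edges are seen in all 4 maps.

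The Shh side edge bin holds a match to the CTCF core consensus, searched on both strands of chromosome 5 by the name of the motif, and 4.88% of chromosome 5 bins hold one. The sequences of this match and of the 2 matches nearest to the far end of the domain are shown because of their position. The latter lie 112 and 24 kb short of the Lmbr1 side edge bin. They are read from the RefSeq GRCm38.p6 genome, each 5′ to 3′ on the strand of its match, and capitals mark the core.
Shh side edge, chr5:28451365-28451388, plus strand, between genes: acatggCCACCAGAGGGCgctcgg
Lmbr1 end, chr5:29248316-29248339, plus strand, intron 15 of Lmbr1-201: catgctCCACTAGAGGGCccaaga
Lmbr1 end, chr5:29336032-29336055, minus strand, intron 4 of Lmbr1-201: gtgataCCAGCAGGTGGCagtaga
The plus strand match at the Shh side edge and the minus strand match in intron 4 of Lmbr1 point towards each other. So do the intron 15 and intron 4 matches, and the edge match and a minus strand match at chr5:28519254-28519277, inside the domain. The intron 4 match lies 24 kb short of the Lmbr1 side edge bin, which itself and its neighbours hold no match. Of chromosome 5 bins, 26.3% have a match within 3 bins, so the distance to the Lmbr1 side edge is not unusual. A match is a description of these letters, and no CTCF binding was measured here. Contact between the bins around the edge match and the intron 4 match, 888 kb apart, came to 26 contacts in WT ESC, 18 in PATZ1 KO ESC, 33 in WT MN and 37 in PATZ1 KO MN, or 12.6, 8.86, 17.1 and 18.4 times expected. With the plus strand match in intron 15, at 800 kb, it was 9.32, 9.06, 10.7 and 11.6 times expected. The intervals of these pairs overlap in each library. Between the intron 15 and intron 4 matches, 88 kb apart, contact was 0.75, 0.57, 0.56 and 0.82 times expected. All 3 pairs were chosen after the matches were seen. Between the edge bins themselves, in a square of 3 by 3 bins, there were 0 listed contacts in both ESC libraries, which share a list, 16 in WT MN and 14 in PATZ1 KO MN. The ring of bins 4 to 8 away from them was 4.91, 4.30, 6.83 and 7.62 times expected. The square relative to the ring was 1.26 (0.71 to 2.07) in WT MN and 0.95 (0.52 to 1.62) in PATZ1 KO MN. The upper ends of the intervals in WT and PATZ1 KO ESCs were 0.39 and 0.46. They are no bound on contact, since an unlisted pair counts as 0 and either ESC library may hold contacts there.

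**Figure D2:**
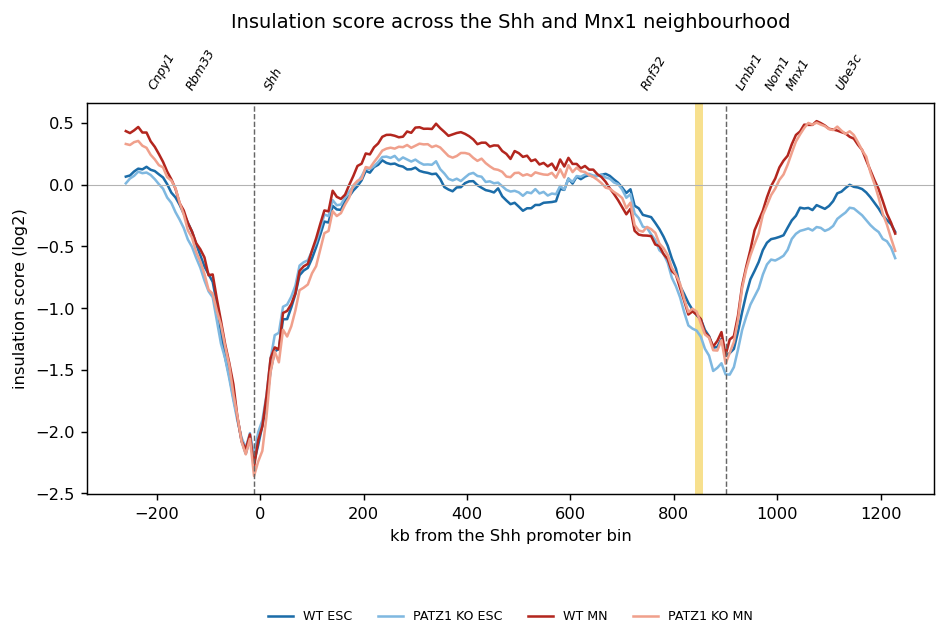
Insulation score (log2) along the window in the 4 libraries, against kb from the Shh promoter bin. Dashed lines mark the edges of the Shh domain, the yellow bar the limb enhancer bins, and gene names stand at their promoters. The 4 lines run together through both edges, and over most of the Mnx1 side both MN lines lie above both ESC lines.

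The Shh promoter contacted the limb enhancer bins more than nearly any autosomal pair of bins at that separation, in each library. In the square of 3 by 4 bins there were 48 contacts in WT ESC, 36 in PATZ1 KO ESC, 46 in WT MN and 50 in PATZ1 KO MN. These came to 15.0 times expected (95% interval 11.1 to 19.9), 11.5 (8.07 to 16.0), 16.0 (11.7 to 21.3) and 16.7 (12.4 to 22.1). Only 0.0249% of autosomal squares reached that value in WT ESC, 0.0820% in PATZ1 KO ESC, 0.0544% in WT MN and 0.0530% in PATZ1 KO MN. The contact was thus high in ESCs as well as in MNs. On the log2 scale the ratio of PATZ1 KO to WT came to -0.38 (-1.05 to 0.27) for ESCs and 0.07 (-0.54 to 0.68) for MNs, and that of WT MN to WT ESC to 0.09 (-0.53 to 0.70). All 3 intervals include 0, and a change of about 1.5-fold was not detectable at this depth. The last ratio had no stable direction: it was 0.40 (0.02 to 0.78) in a square widened to 5 by 5 bins around the anchors, -0.15 (-0.77 to 0.46) over listed pairs and -0.38 (-1.05 to 0.31) in thinned libraries. Over listed pairs alone the contact was 2.84, 2.18, 2.56 and 2.68 times expected, a smaller value, since only pairs with a contact then enter the observed and the expected side.

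The high contact was not restricted to the enhancer bins. Against a ring of bins 4 to 8 bins away, the square was 2.39 times higher in WT ESC (1.73 to 3.23), 2.05 in PATZ1 KO ESC (1.42 to 2.89), 1.88 in WT MN (1.36 to 2.54) and 2.06 in PATZ1 KO MN (1.51 to 2.76). In blocks of 40 kb, contact of the Shh promoter climbed with distance through the domain and peaked over Lmbr1. In the block that starts at 29280001, which holds the enhancer bins, it was 17.2, 18.1, 17.8 and 21.8 times expected. Over chr5:29240001-29360000, which covers the enhancer bins and both matches in Lmbr1, the 4 libraries held 194, 181, 172 and 210 contacts, 15.7, 14.9, 15.6 and 18.5 times expected. The log2 ratio of PATZ1 KO to WT over this stretch, which was chosen after the profile was seen, was -0.08 (-0.38 to 0.22) for ESCs and 0.24 (-0.06 to 0.54) for MNs. Beyond the Lmbr1 side edge, contact dropped from this peak and stayed above expected at the Lmbr1 promoter. With the Lmbr1 promoter it was 18, 14, 15 and 6 contacts, 9.31, 7.40, 8.06 and 3.11 times expected. The PATZ1 KO MN count was the lowest, and the log2 ratio of KO over WT in MNs, -1.38, had an interval from -3.03 to 0.07 that includes 0. The promoter of Rnf32, which encodes a ring finger protein, lies inside the domain. With it there were 21, 21, 29 and 33 contacts, 6.24, 6.42, 10.4 and 11.6 times expected. For its distance, the Lmbr1 promoter beyond the edge was thus higher than that of Rnf32 in both ESC libraries and lower in both MN libraries.

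**Figure D3:**
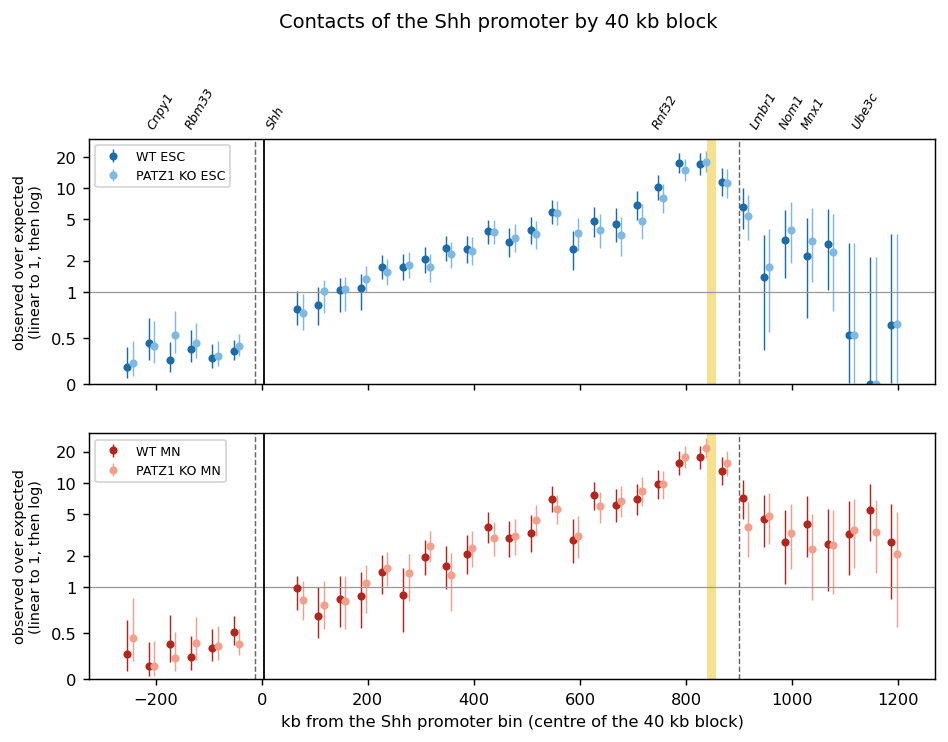
Observed over expected contact of the Shh promoter (3 bins, black line) with each block of 40 kb, ESC libraries above and MN libraries below, with exact Poisson 95% intervals. The axis is linear from 0 to 1 and logarithmic above, dashed lines mark the domain edges and the yellow bar the limb enhancer bins. Contact stays below 1 on the Rbm33 side, climbs past 10 over the Lmbr1 end in all libraries, and over the last 3 blocks is at most 0.66 in ESCs and between 2.06 and 5.48 in MNs.

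The contacts of the Shh promoter were one-sided. Of its contacts between 40 kb and 1000 kb, 82.7% (80.6 to 84.7) lay on the Lmbr1 side in WT ESC, 80.7% (78.5 to 82.8) in PATZ1 KO ESC, 85.4% (83.0 to 87.6) in WT MN and 86.6% (84.3 to 88.7) in PATZ1 KO MN. The share was thus 4 in 5 or more in each library, and the intervals of WT and PATZ1 KO overlapped within each cell state. Away from Lmbr1 the counted contacts extend beyond the window. On the Rbm33 side, across the edge that lies 2 bins from the promoter bin, contact was 0.34, 0.41, 0.38 and 0.35 times expected.

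Between the promoters of Shh and Mnx1 there were 6 contacts in WT ESC, 8 in PATZ1 KO ESC, 9 in WT MN and 8 in PATZ1 KO MN. This was 4.17 (1.53 to 9.08), 5.62 (2.43 to 11.1), 5.95 (2.72 to 11.3) and 5.01 (2.16 to 9.87) times expected. The ring of bins 4 to 8 away was itself raised, at 2.03, 1.85, 2.45 and 2.29 times expected. Relative to the ring, the square was 2.06 (0.73 to 4.67), 3.04 (1.26 to 6.30), 2.43 (1.08 to 4.79) and 2.18 (0.92 to 4.47). The counts do not tell the libraries apart. The log2 ratio of PATZ1 KO to WT was 0.43 (-1.29 to 2.24) for ESCs and -0.25 (-1.82 to 1.30) for MNs, and that of WT MN to WT ESC was 0.51 (-1.14 to 2.28). In a square of 5 by 5 bins the values were 2.24, 3.01, 3.54 and 2.92, and the pair of promoter bins itself had 0 contacts in each library. Over listed pairs alone the values were 1.08, 1.45, 1.61 and 1.35 times expected, close to the mean of listed pairs at that separation, where 11.5% of chromosome 5 pairs were listed in ESCs and 11.9% in MNs. The neighbouring promoter of Nom1, a nucleolar protein, gave 4, 5, 7 and 10 contacts with Shh.

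The promoters of Shh and Ube3c met in 1 contact in each ESC library, 7 in WT MN and 8 in PATZ1 KO MN, and the log2 ratio of WT MN to WT ESC, 2.61, had an interval from -0.35 to 8.10 that includes 0. Over chr5:29560001-29680000, which spans Ube3c, the Shh promoter had 2 contacts in WT ESC, 2 in PATZ1 KO ESC, 23 in WT MN and 19 in PATZ1 KO MN, in 2 of 45 pairs listed for ESCs and 13 of 45 for MNs. Both MN libraries were thus higher than both ESC libraries, and the part of the listing rule in this was not tested. WT MN over WT ESC was 3.29 on the log2 scale, with an interval from 1.27 to 6.41. The stretch was chosen after the profile was seen, and this value is a description.

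**Figure D4:**
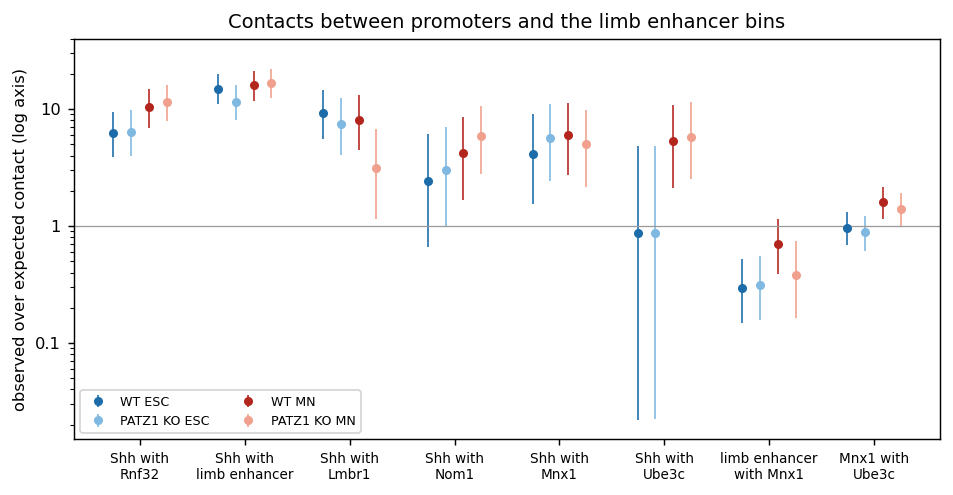
Observed over expected contact (log axis) of promoter and enhancer pairs in the 4 libraries, in squares of 3 by 3 bins (3 by 4 with the limb enhancer), with exact Poisson 95% intervals. Shh with the limb enhancer is the highest of the plotted pairs in each library, and Shh with Ube3c is near 1 in both ESC libraries and above 5 in both MN libraries.

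The contacts of the Mnx1 promoter lay mostly on the side away from Shh. Of its contacts between 40 kb and 1000 kb, 40.1% (36.5 to 43.9) lay on the Lmbr1 side in WT ESC, 40.6% (36.6 to 44.6) in PATZ1 KO ESC, 35.3% (31.5 to 39.3) in WT MN and 32.9% (29.0 to 37.0) in PATZ1 KO MN. Away from Lmbr1 these contacts, too, extend beyond the window. With the Shh domain the contact of the Mnx1 promoter was 0.27, 0.28, 0.38 and 0.30 times expected. With the limb enhancer, 168 kb away, it had 11, 11, 15 and 8 contacts, 0.29 (0.15 to 0.53), 0.31 (0.16 to 0.56), 0.70 (0.39 to 1.15) and 0.38 (0.16 to 0.75) times expected. The enhancer bins lie nearer to Mnx1 than to Shh on the chromosome, and for their distance contacted Shh more than the mean in all 4 libraries and Mnx1 less in 3, the WT MN interval including 1.

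On its own side, Mnx1 contacts were higher in MNs. With the rest of the Mnx1 side they were 0.99 times expected in WT ESC (0.90 to 1.08), 0.89 in PATZ1 KO ESC (0.81 to 0.99), 1.42 in WT MN (1.29 to 1.56) and 1.34 in PATZ1 KO MN (1.21 to 1.47). The intervals of the ESC and MN libraries do not overlap, and WT MN over WT ESC was 0.52 (0.33 to 0.71) on the log2 scale. The median over all autosomal promoters, for contacts from 40 kb to 1000 kb, was 0.23. Among blocks of 40 kb the difference between the cell states was widest over Ube3c. Over chr5:29560001-29680000, chosen after the profile was seen, the Mnx1 promoter had 155, 126, 171 and 177 contacts, 0.96, 0.83, 1.79 and 1.90 times expected, and WT MN over WT ESC was 0.90 (0.57 to 1.22). For that stretch the log2 ratio of PATZ1 KO to WT was -0.21 (-0.56 to 0.14) for ESCs and 0.08 (-0.23 to 0.39) for MNs. Both MN libraries also stood above both ESC libraries in the block before Ube3c that starts at 29520001 (0.87, 0.87, 1.26 and 1.11 times expected) and, towards Lmbr1, in the block that starts at 29360001 (0.89, 0.80, 1.02 and 1.20). In both of these blocks the intervals of the libraries overlap. In the block that starts at 29400001 the values were 1.13, 0.99, 1.20 and 0.92, and the cell states were not apart. Between the promoters of Nom1 and Mnx1, 40 kb apart, there were 90, 75, 78 and 50 contacts, and the log2 ratio of PATZ1 KO to WT was -0.14 (-0.60 to 0.32) for ESCs and -0.61 (-1.16 to -0.08) for MNs. Many pairs of promoters and the limb enhancer were measured in this way, with no allowance for their number. For most of them the interval of PATZ1 KO to WT includes 0. Besides Nom1 with Mnx1 in MNs, it lay below 0 for Lmbr1 with Nom1 in ESCs, at -0.57 (-1.10 to -0.05). In MNs that pair stood at -0.45 (-1.04 to 0.13).

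**Figure D5:**
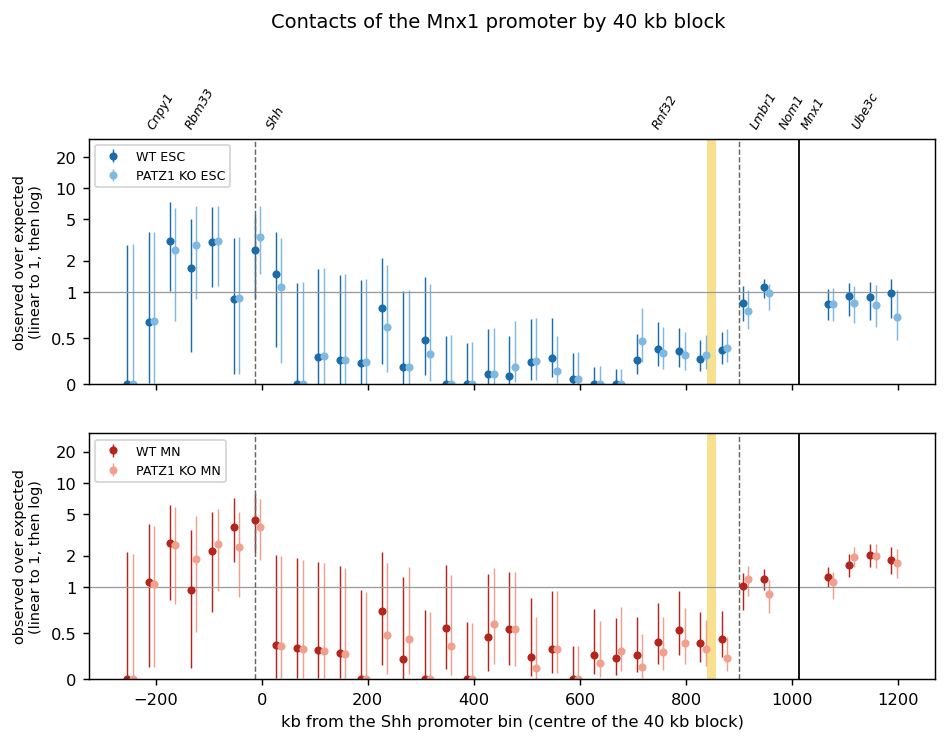
Observed over expected contact of the Mnx1 promoter (3 bins, black line) with each block of 40 kb, ESC libraries above and MN libraries below, with exact Poisson 95% intervals. The axis is linear from 0 to 1 and logarithmic above, and dashed lines mark the edges of the Shh domain. Contact lies below 1 through most of the Shh domain in all libraries, and over the 3 blocks at the right end it is between 0.72 and 0.99 in ESCs and between 1.61 and 2.01 in MNs.

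Inside the whole Mnx1 side MN libraries were higher too. Contacts inside it at 104 to 296 kb were 1.14 times expected in WT ESC, 0.99 in PATZ1 KO ESC, 1.67 in WT MN and 1.65 in PATZ1 KO MN, and WT MN over WT ESC was 0.55 (0.43 to 0.66) on the log2 scale. Over listed pairs alone it was 0.26 (0.15 to 0.37). At 16 to 96 kb the ratio was 0.23 (0.17 to 0.30), and over all separations 0.31 (0.26 to 0.37). The log2 ratio of PATZ1 KO to WT at 104 to 296 kb was -0.21 (-0.32 to -0.09) for ESCs, below 0 in each alternative tried, and -0.01 (-0.13 to 0.10) for MNs. Over all separations it was -0.14 (-0.20 to -0.08) for ESCs and -0.07 (-0.13 to -0.01) for MNs. Inside the Rbm33 side, also over all separations, it was -0.12 (-0.20 to -0.05) for ESCs and -0.16 (-0.24 to -0.07) for MNs. These intervals cover counting error of 1 library per group only. For scale, the median log2 ratio of PATZ1 KO to WT over all autosomal promoters was -0.06 in ESCs and -0.14 in MNs. That of WT MN to WT ESC was 0.23. These medians are for promoter contacts from 40 kb to 1000 kb, and no background for segments of this kind was computed. At the Mnx1 promoter the insulation score was -0.41 in WT ESC and -0.58 in PATZ1 KO ESC against 0.19 in WT MN and 0.08 in PATZ1 KO MN. The difference of 0.60 from WT ESC to WT MN exceeded that of 93.7% of autosomal bins, whose median change was -0.04. On the Mnx1 side 32 of 41 bins were higher in WT MN by at least 0.2 and 0 lower. Of autosomal bins 29.4% were higher by that much and 35.4% lower, 64.8% in all. In the whole window 82 of 187 bins were higher and 2 lower. Neighbouring bins share most of their contacts and are not independent.

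Inside the Shh domain contacts were 1.00 times expected in WT ESC, 1.02 in PATZ1 KO ESC, 1.15 in WT MN and 1.08 in PATZ1 KO MN, and over 600 kb, where only the ends of the domain can meet, 3.25, 3.01, 3.95 and 3.94. WT MN over WT ESC was 0.20 (0.17 to 0.23) for all separations, 0.18 (0.12 to 0.24) at 104 to 296 kb, where the Mnx1 side had 0.55, and 0.28 (0.15 to 0.41) over 600 kb. The median autosomal promoter stood at 0.23 in this comparison, so the value for all separations is no higher than that. Inside the domain the log2 ratio of PATZ1 KO to WT was 0.02 for ESCs, with an interval from -0.00 to 0.05 that includes 0 and that excludes 0 with the expected contact of all autosomes (0.04 to 0.10) or in thinned libraries (0.01 to 0.08). It was -0.09 (-0.13 to -0.06) for MNs, where the median promoter stood at -0.14. Across the Lmbr1 side edge, between the domain and the Mnx1 side, contacts were 0.36, 0.33, 0.41 and 0.39 times expected. WT MN over WT ESC was 0.20 (0.09 to 0.31) on the log2 scale and 0.36 (0.23 to 0.49) in thinned libraries. By separation it was -0.02 (-0.34 to 0.30) at 16 to 96 kb, -0.04 (-0.24 to 0.15) at 104 to 296 kb, 0.28 (0.07 to 0.48) at 304 to 600 kb and 0.51 (0.27 to 0.74) over 600 kb, so that the higher level in WT MN was at the longer separations. The log2 ratio of PATZ1 KO to WT was -0.11 (-0.22 to -0.01) for ESCs and -0.08 (-0.20 to 0.05) for MNs. The ESC interval includes 0 with the expected contact of all autosomes (-0.18 to 0.03), over listed pairs (-0.21 to 0.00) and in thinned libraries (-0.23 to 0.07). Not all contacts past this edge were below expected. The Shh promoter with the Mnx1 side stood at 2.49, 2.47, 3.95 and 3.11 times expected, and WT MN over WT ESC was 0.66 (0.12 to 1.23). The Rbm33 side with the Mnx1 side stood at 2.34, 2.29, 2.73 and 2.53.

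Across the Shh side edge the enhancer end of the domain met the Rbm33 side more often in MNs. The limb enhancer bins had 93 contacts with the Rbm33 side in WT ESC, 72 in PATZ1 KO ESC, 140 in WT MN and 174 in PATZ1 KO MN, or 4.23, 3.32, 6.25 and 7.48 times expected. With the promoter of Rbm33, an RNA-binding protein gene, they had 3, 2, 14 and 16 contacts. WT MN over WT ESC for the Rbm33 side was 0.56 (0.18 to 0.96) on the log2 scale. It turned to -0.13 (-0.52 to 0.27) over listed pairs alone, and with chromosome 5 contacts thinned to the same total before listing it was 0.37 with an interval from -0.10 to 0.85 that includes 0.

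In single block pairs, few passed the fold between PATZ1 KO and WT. Of 289 block pairs of 40 kb with at least 50 contacts in both ESC libraries together, 2 were at least 1.5-fold higher in PATZ1 KO and 0 lower (0.692%), beside 2.52% past that fold in either direction over all autosomal block pairs. In MNs 2 of 262 were higher and 3 lower (1.91%), beside 8.07%. Both shares are below the background. That background, also used for WT MN over WT ESC, was not matched to the window for separation or contacts per block pair. The lower shares thus do not show that the window changed less. Between WT MN and WT ESC 54 of 279 (19.4%) passed the fold, beside 31.0%. By direction, 46 were higher in MNs and 8 lower, a larger share higher and a smaller share lower than the 13.7% and 17.2% of autosomal block pairs. Of the 28 block pairs inside the Mnx1 side, 9 were higher in MNs and 0 lower, and of the 217 inside the Shh domain 32 were higher and 8 lower. A block that spans an edge was counted with the side that holds its middle.

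Insulation scores of the window differed between PATZ1 KO and WT in few bins in MNs, and in ESCs in a share slightly above the background. In MNs 3 of 187 bins (1.60%) differed by at least 0.2, all of them lower in PATZ1 KO and inside the Shh domain between 28512001 and 28584000, beside 18.5% of autosomal bins that were lower and 41.7% that differed in either direction. In ESCs 10 of 187 bins (5.35%) were lower by that much and 0 higher, beside 2.93% lower and 4.50% in either direction. All 10 lay on the Mnx1 side (24.4% of its 41 bins), where each bin scored lower in PATZ1 KO than in WT. The median change of autosomal bins was -0.007. Neighbouring bins share most of their contacts, so these 41 bins are not independent. At the Mnx1 promoter bin the change was -0.17 in ESCs, and 5.42% of autosomal bins had a lower one. In MNs it was -0.11, and 32.4% had a lower one.

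To set the members beside lists of their pathway and of motor neurons, the contact of each promoter from 40 kb to 1000 kb was compared in the same way. For promoters of the window this includes contacts beyond the window. Shh stood at 1.30 times expected in WT ESC, 1.29 in PATZ1 KO ESC, 1.38 in WT MN and 1.45 in PATZ1 KO MN, above at least 93.5% of 20352 autosomal protein-coding promoters in each library. Mnx1 stood at 0.66, 0.60, 0.89 and 0.82. None of the 8 promoters of the window passed 1.5-fold in any of the 3 comparisons, which 0.263% of autosomal promoters passed for PATZ1 KO over WT in ESCs, 0.409% in MNs and 18.1% for WT MN over WT ESC. All 8 were higher in WT MN than in WT ESC, by 0.09 (Shh) to 0.49 (Cnpy1) on the log2 scale. Most autosomal promoters were higher too, with a median of 0.23, and the promoters of 1 window share contacts. Mnx1, at 0.43, exceeded 73.0% of promoters and Shh 36.1%.

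Of 18 Hedgehog pathway genes, Shh among them (3 ligands, 6 receptors or binding proteins, 3 genes of ligand release, 3 transducers and 3 Gli transcription factors), 2 (11.1%) were at least 1.5-fold higher in WT MN than in WT ESC and 0 lower, beside 12.0% of all promoters higher and 18.1% past the fold in either direction. They were Dhh, a ligand of the same family, at 0.76, and Ptch1, the Hedgehog receptor and itself a target of the pathway, at 0.75. The median of the list was 0.30, beside 0.23 for all promoters. With PATZ1 KO, 0 of 18 passed the fold in either cell state, close to the 0.263% of all promoters in ESCs and 0.409% in MNs. The values ran from -0.34 to 0.14 in ESCs, with a median of -0.05 beside -0.06 for all promoters. In MNs they ran from -0.39 to 0.07, the value of Shh itself, with a median of -0.24 beside -0.14. Of 14 ventral cord and motor neuron genes, Mnx1 among them, 3 (21.4%) were higher in WT MN and 0 lower, beside the same 12.0%: Chat, which encodes the enzyme that makes acetylcholine, at 0.69, Nkx6-1, a homeobox factor of ventral progenitors, at 0.60, and Lhx3, a LIM homeobox factor of motor neurons, at 0.59. The median of the list was 0.32, beside 0.23. With PATZ1 KO 0 of 14 passed the fold, beside the same small shares of all promoters as above. The median with PATZ1 KO was 0.08 in ESCs, beside -0.06, and -0.13 in MNs, beside -0.14. Over the 4 libraries the promoters with values most like those of Shh were Lhx9, Nek7 and Sp4 (Euclidean distance 0.04 to 0.06 on the log2 scale, 20256 promoters compared), and most like those of Mnx1 were Skil, Dmrtc2 and Lypd4, the last pair with equal values. This closeness over 4 values per gene is a description.

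The promoter sequences of RefSeq (GRCm38.p6) held entries for 7 of the 8 genes of the window, Shh being the one without. The word GGGAGGG was searched on both strands because PATZ1 is described as binding G-rich sequence. It was in 0 of the 8 entries of these genes and in 22.0% of all 32851 promoter entries.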

How the data were processed

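Micro-C was performed with a Dovetail kit in WT and PATZ1 KO ESCs and MNs (1 library each), and HiCcompare was run by that company for the authors on WT against KO in each cell state. The deposited interaction frequencies are raw counts of contacts for each pair of 8 kb bins. A second pair of deposited columns holds a signal, the same frequencies after HiCcompare normalized the 2 libraries of a cell state together. The build is mm10 per the labels. Aligner and filters are not given in the sources used here. The authors' comparison columns (log ratios, correction, distance, mean, Z score, p-values) were not used.

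Bands of contacts within 2000 kb were built with Python 3.11.15, NumPy 2.4.6 and pandas 2.3.3. Contacts per library over all listed pairs ran from 110991835 to 170946673. Observed over expected contact, insulation scores, block pairs of 40 kb and promoter profiles were computed, with exact Poisson and binomial (Clopper-Pearson) intervals from SciPy 1.17.1. These cover counting error only, since duplicate handling is not given. Gene positions are from GENCODE M21 on GRCm38. The scripts were tested on simulated data. Groups are those of the labels, and with 1 library per group no test was run.

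Named were all protein-coding genes of the window, a Hedgehog and a motor neuron list whatever their values, and the 3 promoters most like each member. The members and lists were chosen with earlier results of these data known. Alternatives were another square or block size, another expected contact, listed pairs alone, the adjusted frequencies, a narrower distance range and, chosen after seeing the data, libraries thinned to the lowest chromosome 5 total within 2000 kb and listed again, which left them at 5792627 to 6007814 contacts.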

Additional observations from a re-analysis of the deposited data

Results flagged for a closer look

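For 7 of the results recomputed under the alternatives, PATZ1 KO over WT had opposite signs in ESCs and MNs. Each group had 1 library, and the difference was not tested. MN minus ESC was 0.45 on the log2 scale for the Shh promoter with the limb enhancer, -0.68 for the Shh with the Mnx1 promoter, -0.12 for contacts inside the Shh domain and 0.61 for the limb enhancer with the Rbm33 side. The PATZ1 KO over WT intervals include 0 in both cell states for the first 2 of these and for the limb enhancer with the Rbm33 side (-0.81 to 0.11 in ESCs and -0.07 to 0.59 in MNs). The signs of the first 2 no longer differ in the anchor bins alone (Shh with the limb enhancer, -0.70 and -0.54) or in thinned libraries (Shh with Mnx1, -0.01 and -0.23). For the insulation score of the Shh side edge it was -0.13. For the share of contacts on the Lmbr1 side it was 3.13 percentage points for the Shh promoter and -2.83 for the Mnx1 promoter. Other values in the text, such as those of the Lmbr1 stretch of Shh and the Ube3c stretch of Mnx1, also had opposite signs, with intervals that include 0.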

How the results depend on the processing

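No paired analysis was possible because each group had 1 library. Of 289 recomputed values, 203 moved by less than their interval, or for counts less than 1.5 times, and 86 by more. The sign changed in 6, of which 5 had an interval that includes 0 in the first place: Shh with the limb enhancer for WT MN over WT ESC (-0.15 over listed pairs, -0.38 in thinned libraries) and for PATZ1 KO over WT in MNs (-0.54 for the anchor bins alone), and, in thinned libraries, Shh with Mnx1 for PATZ1 KO over WT in ESCs (-0.01) and WT MN over WT ESC (-0.20). Over listed pairs alone, the Shh promoter with the limb enhancer was 2.84 (WT ESC), 2.18 (PATZ1 KO ESC), 2.56 (WT MN) and 2.68 (PATZ1 KO MN) times expected, and WT MN over WT ESC was 0.14 in place of 0.20 inside the Shh domain over all separations, 0.26 in place of 0.55 inside the Mnx1 side at 104 to 296 kb and, with the sign turned, -0.13 for the limb enhancer with the Rbm33 side. For the pair of anchor bins alone, Shh with the limb enhancer was 9.37 in WT ESC, 5.76 in PATZ1 KO ESC and 9.9997 in PATZ1 KO MN. With chromosome 5 contacts thinned to the lowest total and listed again it was 21.1 in WT ESC and 18.3 in PATZ1 KO ESC, the log2 ratio of WT MN to WT ESC across the Lmbr1 side edge was 0.36 in place of 0.20, and the ESC edge scores were -2.49 (WT) and -2.39 (KO) at the Shh side and -1.61 and -1.68 at the Lmbr1 side. With the expected contact from all autosomes, contacts inside the Shh domain, PATZ1 KO over WT in ESC, were 0.072 on the log2 scale.

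With contacts from 40 kb to 500 kb the Lmbr1 side share of Shh was 75.7% in WT ESC, 73.8% in PATZ1 KO ESC, 75.6% in WT MN and 77.0% in PATZ1 KO MN. With a square of about 400 kb the Shh side edge scored -2.10, -2.02, -2.02 and -2.12 in the same order and the Lmbr1 side edge -1.54 and -1.67 in ESCs; with one of about 160 kb the Lmbr1 side edge scored -1.19, -1.38 and -1.21 in WT ESC, PATZ1 KO ESC and WT MN, and the rise at the Mnx1 promoter from WT ESC to WT MN was 0.44. Block pairs past the fold for PATZ1 KO over WT in ESCs, in MNs and for WT MN over WT ESC numbered 2, 5 and 54. With blocks of 80 kb they numbered 0, 0 and 21, with at least 20 contacts 11, 20 and 106, and at 2-fold 0, 0 and 16. The autosomal share was computed for the main setting only, so the other counts have no background beside them and show only how the number depends on the setting. Distance-matched ratios hardly differ under the jointly normalized frequencies, because that normalization acts by distance.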
